A study of Mus musculus with 24 samples.

Results

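Peroxisome proliferator-activated receptors (PPARs) are lipid-sensing transcription factors, and 10 genes tied to them in muscle fatty acid handling were followed here through changes in O2 and electrical stimulation in cultured mouse myotubes. They were taken by gene symbol from the 55487 genes listed, and all 10 were among the 14541 genes that passed the filter on low values. They comprise the receptor gene Ppard, the 7 regulated targets Lpl, Angptl4, Plin2, Cpt1a, Cpt1b, Ucp2 and Ucp3, and the beta-oxidation enzyme genes Acadvl and Hadha. The bulk RNA came from C2C12, a single mouse myoblast line that fuses into myotubes, at day 5 of differentiation. Of the 24 libraries, 6 came from each of 4 groups. Myotubes were held for 2 h in 5 % O2, the level in which the line was grown, or in 1 % O2. They were either left unstimulated (5 % CTRL, 1 % CTRL) or given repeated bouts of high-frequency electrical pulses (5 % STIM, 1 % STIM) and harvested directly afterwards. The labels name no genetic change or drug in any group, and the study describes the 6 samples of each group as biological replicates. Its methods state that the medium was exchanged around stimulation and that the 2 h came before the pulses. Whether unstimulated cultures had the same exchanges, or were harvested as late as stimulated ones, is not given in the sources used here. The pulses, the exchange of medium and any added time at each O2 level therefore cannot be told apart.

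In skeletal muscle, PPARδ, the product of Ppard, forms a heterodimer with a retinoid X receptor and is activated by fatty acids. Its known targets act at successive steps of fatty acid use. Lipoprotein lipase (Lpl) releases fatty acids from circulating triglyceride and is inhibited by the secreted protein Angptl4. Perilipin 2 (Plin2) coats lipid droplets. Cpt1a and Cpt1b are the carnitine palmitoyltransferases of the outer mitochondrial membrane that commit long-chain fatty acids to oxidation, Cpt1b being the form of adult muscle. Ucp2 and Ucp3 are carriers of the inner mitochondrial membrane. Acadvl and Hadha encode enzymes of beta-oxidation itself, very long-chain acyl-CoA dehydrogenase and the alpha subunit of the trifunctional protein.

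Promoters are shown for 3 regulated targets and, beside them, for an enzyme gene, because PPARs bind repeats of the hexamer AGGTCA. The 250 bases before the start of each gene were taken from RefSeq (GRCm38.p6), where 7 of the 10 genes were matched, all but Angptl4, Lpl and Cpt1b. Sequences read 5′ to 3′ on the strand of the gene and end at the base before the RefSeq start, from which distances are counted. That start can differ from the gene spans given below for each gene. The Cpt1a window lies wholly inside the Cpt1a span, and the Hadha window lies partly inside the Hadha span. Capitals mark the hexamer AGGTCA or its reverse complement TGACCT, and, in Plin2, also CACGC, the reverse complement of GCGTG, a core sequence that hypoxia-inducible factors (HIFs) can bind. The windows are chr19:3323051-3323300 on the plus strand for Cpt1a, chr7:100472741-100472990 on the plus strand for Ucp3, chr4:86670060-86670309 on the minus strand for Plin2 and chr5:30154981-30155230 on the minus strand for Hadha.
Cpt1a: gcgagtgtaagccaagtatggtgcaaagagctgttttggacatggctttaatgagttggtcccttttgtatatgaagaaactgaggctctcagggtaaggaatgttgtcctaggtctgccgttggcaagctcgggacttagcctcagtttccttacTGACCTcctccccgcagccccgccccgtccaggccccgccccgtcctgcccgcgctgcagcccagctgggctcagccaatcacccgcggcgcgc
Ucp3: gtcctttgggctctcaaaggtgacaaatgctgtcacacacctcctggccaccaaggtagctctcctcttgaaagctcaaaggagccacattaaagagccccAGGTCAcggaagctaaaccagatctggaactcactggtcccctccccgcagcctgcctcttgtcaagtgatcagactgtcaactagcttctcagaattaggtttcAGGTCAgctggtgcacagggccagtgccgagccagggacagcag
Plin2: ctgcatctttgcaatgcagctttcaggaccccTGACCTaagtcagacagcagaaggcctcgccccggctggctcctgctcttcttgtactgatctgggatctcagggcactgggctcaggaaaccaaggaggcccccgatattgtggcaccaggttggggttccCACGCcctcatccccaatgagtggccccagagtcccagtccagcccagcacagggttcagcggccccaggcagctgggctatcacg
Hadha: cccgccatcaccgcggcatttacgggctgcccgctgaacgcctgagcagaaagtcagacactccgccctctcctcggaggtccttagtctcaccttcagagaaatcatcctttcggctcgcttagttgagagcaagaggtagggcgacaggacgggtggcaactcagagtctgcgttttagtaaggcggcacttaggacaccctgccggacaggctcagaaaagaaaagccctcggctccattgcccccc
The PPAR element AGGTCANAGGTCA, searched on both strands, was found in 0 of the 7 promoters and in 0.0338 % of 32536 promoters of this length. The hexamer on its own, which is part of that element, was found in Cpt1a (94 bases before the RefSeq start), Plin2 (218 bases), Ucp3 (149 and 44 bases) and Acadvl (87 bases), against 14.0 % of all promoters. The regulated target Ucp2 held no hexamer, whereas the enzyme gene Acadvl did. The printed windows therefore do not stand for a difference between targets and enzyme genes. The HIF cores ACGTG and GCGTG were found in 16.7 % and 28.3 % of all promoters. Ppard, Acadvl, Plin2 and Ucp2 held at least 1 of these cores, whereas Cpt1a and Ucp3 held neither, and the Hadha window held none of the letters searched. The share of all promoters with at least 1 of these cores was not counted, so that no enrichment or lack can be read from these genes.

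Libraries held 26541858 to 28173745 reads, and each value below is a normalized count, that is, the count of the gene divided by the size factor of its library. Over all tested genes, 49.0 % of calls between the unstimulated groups were higher at 1 % O2, and 62.7 % were so with libraries rescaled to the same total. The same shares were 50.4 % and 63.2 % for 1 % STIM against 5 % STIM, 44.0 % and 62.1 % for 5 % STIM against 5 % CTRL, and 51.4 % and 62.4 % for 1 % STIM against 1 % CTRL. With libraries rescaled, 5670 of the 14541 tested genes were called higher and 3378 lower in 1 % CTRL than in 5 % CTRL. Between the stimulated groups, 5466 were then higher and 3182 lower at 1 % O2. Stimulation then raised 1860 and lowered 1133 at 5 % O2, and raised 2142 and lowered 1293 at 1 % O2. Rescaling moved the median log2 fold change of all genes by at most 0.08. Replicate 1 of 1 % CTRL stood apart in how its values depended on gene length (slope 0.0945, against -0.0367 to 0.0550 in the other libraries), and calls that changed without it are given beside each gene. All 12 myotube markers and all 8 markers of proliferating myoblasts exceeded 10 normalized counts in every group. The summed myoblast markers lay at 3686 to 4140.2 in 5 % CTRL and 4421 to 6719 in 1 % CTRL, and at 4113 to 4789 in 5 % STIM and 4597 to 5697 in 1 % STIM. Of these 8 markers, 6 were called higher in 1 % CTRL than in 5 % CTRL, beside 29.4 % of all tested genes. Of the 12 myotube markers, 7 were called lower, beside 30.5 % of all tested genes. With libraries rescaled, 4 of them were lower and 3 higher, beside 3378 and 5670 of the 14541 tested genes. The part of these markers in the results was not tested. Of 8 adipocyte markers, Lipe alone exceeded 10 and 4 to 6 were at 0 in each group. None of 5 endothelial markers exceeded 10, and of 5 macrophage markers 2 or 3 did.

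Levels of different genes were compared per kb of exon. In 5 % CTRL, Angptl4 had the highest level of the 10 genes at 1696 ± 73.9 normalized counts per kb (mean ± SD, n = 6), above 95.4 % of tested genes. It was followed by Acadvl (1081 ± 16.1), Plin2 (871 ± 23.6), Hadha (517 ± 16.2), Ucp2 (289.8 ± 12.0), Cpt1a (196 ± 7.85) and Ppard (146 ± 7.32), with no overlap between neighbours in this order. Lpl (23.9 ± 2.89), Ucp3 (19.5 ± 3.46) and Cpt1b (12.1 ± 5.68) were the lowest, and neighbours among these 3 overlapped. In 1 % CTRL, Angptl4 held position 4 of the 10 at 460.0 ± 37.4 per kb, below Hadha at 526 ± 21.1. After stimulation it was again the highest, with 3011 ± 48.8 per kb in 5 % STIM and 1600.3 ± 47.5 in 1 % STIM. Ucp3 exceeded Lpl without overlap in 1 % CTRL and in both stimulated groups, at 37.2 ± 7.25 against 21.7 ± 2.90 per kb in 5 % STIM and 51.2 ± 8.14 against 17.4 ± 0.924 in 1 % STIM.

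**Figure D1:**
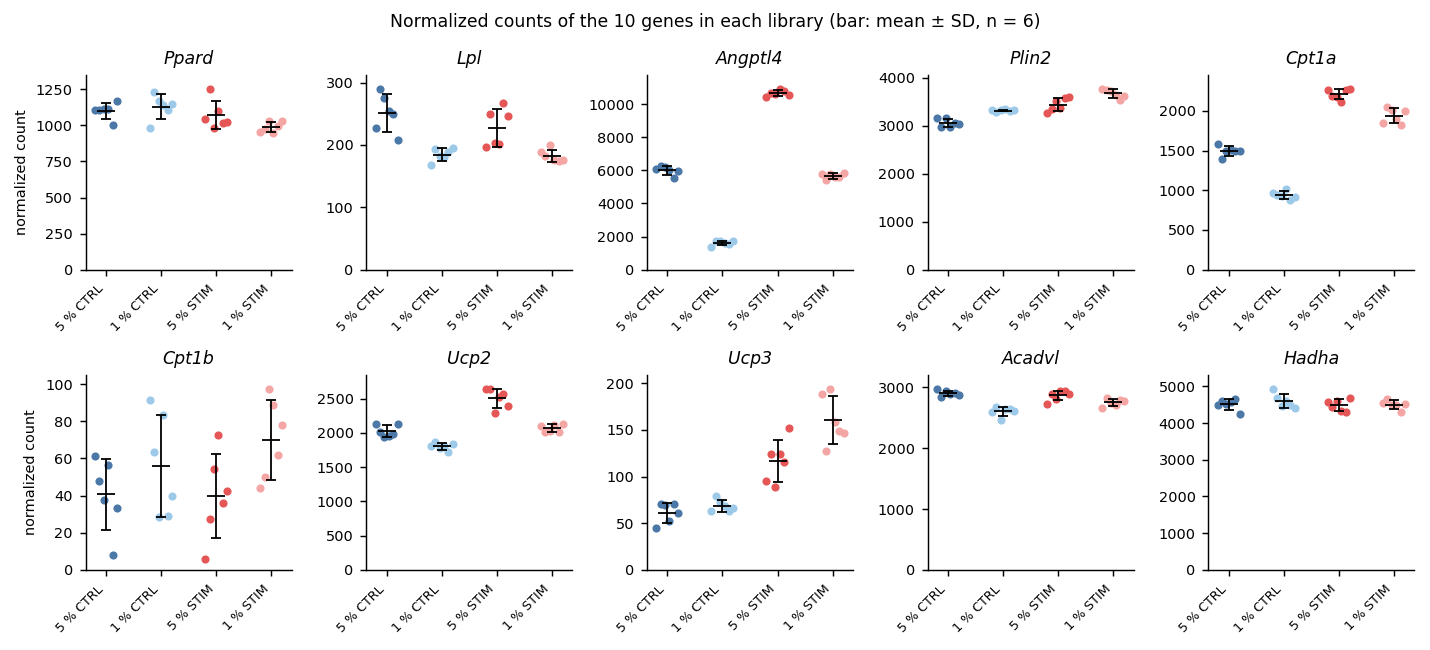
Normalized counts (vertical axes, from 0) of the 10 genes in each of the 24 libraries, by group; points are libraries and bars show mean ± SD (n = 6). The 6 Angptl4 values of 1 % CTRL (1391 to 1739) sit below those of every other group, whereas the Hadha values of all groups lie between 4244 and 4919.

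In unstimulated myotubes, Angptl4 was lower at 1 % O2 by 1.88 on the log2 scale, Cpt1a by 0.67 and Lpl by 0.43, Ucp2 and Acadvl fell by smaller amounts, and Plin2 rose. Of the 10 genes, 5 fell and 1 rose at a limma adjusted p under 0.05, beside 59.9 % of all tested genes that passed the same threshold (30.5 % lower and 29.4 % higher). The groups did not overlap for these 6 genes, as for 38.2 % of all tested genes. Between stimulated groups, 4 fell and 2 rose at 1 % O2, beside 57.4 % of all genes called (28.4 % lower and 29 % higher), and 3 had groups that did not overlap, as did 37.3 % of all genes. In both comparisons the share of the 10 genes called was near that of all genes.

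Stimulation raised 5 of the 7 regulated targets at both O2 levels, namely Angptl4, Cpt1a, Ucp3, Ucp2 and Plin2. At 5 % O2 these were the only genes called among the 10, beside 21.4 % of all tested genes called (9.44 % higher and 12 % lower), and their groups did not overlap, as for 11.1 % of all genes. At 1 % O2, 6 of the 10 rose and 1 fell, beside 22.3 % of all genes called (11.5 % higher and 10.8 % lower). The same 5 targets had groups that did not overlap, as did 11.2 % of all genes, while the enzyme gene Acadvl rose and the receptor gene Ppard fell with overlapping groups.

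**Figure D2:**
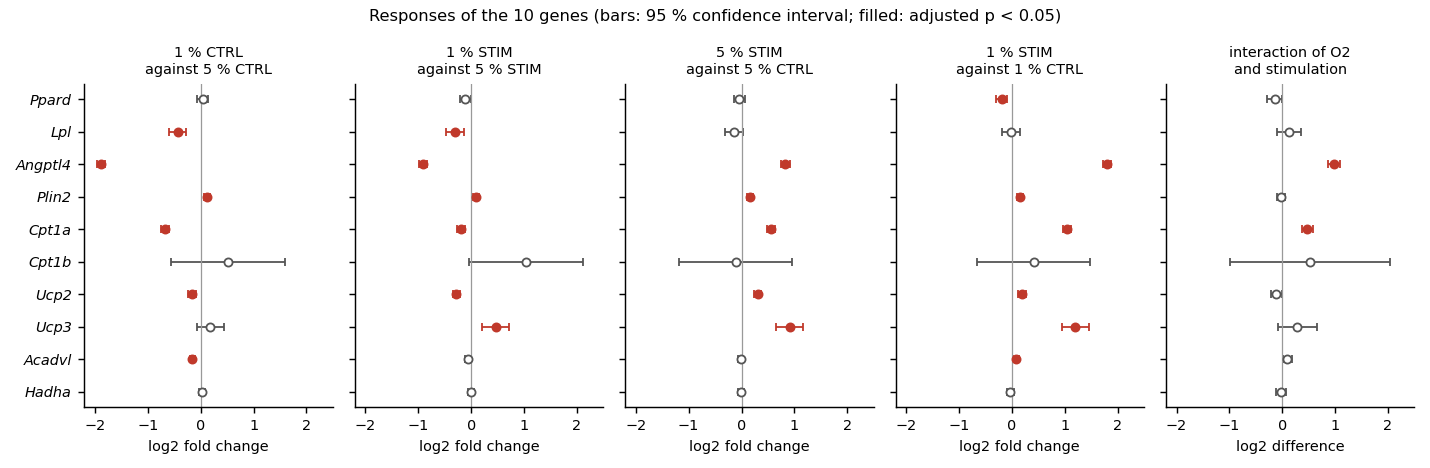
Log2 fold changes of the 10 genes (rows) in 4 comparisons, and the log2 difference between the responses to stimulation at 1 % and 5 % O2 (right panel); bars are 95 % confidence intervals and filled points have an adjusted p under 0.05. Angptl4 and Cpt1a lie left of 0 in both O2 comparisons and right of 0 in both stimulation comparisons, and Hadha stays next to 0 in all 5 panels.

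Angptl4 (ENSMUSG00000002289, GRCm38 chr17:33773750-33781830, minus strand), the secreted inhibitor of lipoprotein lipase, had the widest range of the 10 genes in normalized counts. Its values ran from 5525 to 6242 in 5 % CTRL (median 6042), from 1391 to 1739 in 1 % CTRL (median 1673), from 10435 to 10920.1 in 5 % STIM (median 10630) and from 5398 to 5867 in 1 % STIM (median 5686). All 6 libraries of 1 % CTRL were below, and all 6 of 5 % STIM above, every library of the other groups, while 5 % CTRL and 1 % STIM overlapped. Under 1 % O2 it fell by 72.9 % in unstimulated myotubes (log2 fold change -1.88 ± 0.039 SE, limma adjusted p = 5.93e-29), ranking 38 from the lowest of 14541 genes. It fell by 46.9 % between stimulated groups (log2 fold change -0.91, adjusted p = 5.07e-20). Stimulation raised it 1.78-fold at 5 % O2 (log2 fold change 0.83, adjusted p = 6.06e-18) and 3.49-fold at 1 % O2 (log2 fold change 1.80, adjusted p = 2.05e-27), where it ranked 22 from the highest. In bulk RNA, fewer cells of a type and less RNA per cell cannot be told apart.

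Lpl (ENSMUSG00000015568, GRCm38 chr8:68880491-68907448, plus strand), the enzyme that Angptl4 inhibits, was called in both O2 comparisons and in neither stimulation comparison. Its values were 207 to 289.9 in 5 % CTRL (median 252), 167 to 196 in 1 % CTRL (median 185), 197 to 268 in 5 % STIM (median 225) and 174 to 199 in 1 % STIM (median 179). The unstimulated groups did not overlap, and the stimulated groups did. Lpl fell by 26.0 % at 1 % O2 without stimulation (log2 fold change -0.43 ± 0.081 SE, limma adjusted p = 2.04e-05) and by 19.2 % with it (log2 fold change -0.31, adjusted p = 0.00143). Stimulation gave log2 fold changes of -0.14 (95 % confidence interval -0.31 to 0.02) at 5 % O2 and -0.01 (95 % confidence interval -0.18 to 0.15) at 1 % O2.

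The balance of lipase to inhibitor transcript was measured as the log2 ratio of Lpl to Angptl4 normalized counts within each library. It was -4.58 ± 0.17 in 5 % CTRL and -3.13 ± 0.07 in 1 % CTRL, against -5.55 ± 0.19 in 5 % STIM and -4.95 ± 0.08 in 1 % STIM (mean ± SD, n = 6). The log2 ratio was higher by 1.45 at 1 % O2 without stimulation and by 0.60 with it, and stimulation shifted it by -0.97 at 5 % O2 and by -1.82 at 1 % O2. In each of these comparisons the groups did not overlap, and each difference had the smallest p that the two-sided exact permutation test of 6 against 6 libraries allows (p = 0.00216, adjusted p = 0.00433 over 12 ratio tests). Angptl4 taken by itself, without the ratio, already had groups that did not overlap in all 4 comparisons, whereas log2 fold changes of Lpl were at most 0.43 in size. The separation of the ratio therefore follows that of Angptl4 and is not separate evidence.

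Cpt1a (ENSMUSG00000024900, GRCm38 chr19:3322334-3385733, plus strand), the carnitine palmitoyltransferase of liver and many other tissues, moved in the same directions as Angptl4. It measured 1397 to 1585 in 5 % CTRL (median 1499), 883 to 1015 in 1 % CTRL (median 934), 2115 to 2276 in 5 % STIM (median 2222) and 1822 to 2053 in 1 % STIM (median 1950.0). No groups overlapped, with 1 % CTRL lowest and 5 % STIM highest. At 1 % O2 it fell by 37.1 % without stimulation (log2 fold change -0.67 ± 0.037 SE, limma adjusted p = 4.18e-17) and by 12.5 % with it (log2 fold change -0.19, adjusted p = 3.61e-05). The latter was -0.12 with libraries rescaled (adjusted p = 0.00367). Stimulation raised it 1.48-fold at 5 % O2 (log2 fold change 0.56, adjusted p = 4.59e-14) and 2.06-fold at 1 % O2 (log2 fold change 1.04, adjusted p = 2.86e-21).

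Cpt1b (ENSMUSG00000078937, GRCm38 chr15:89416405-89425863, minus strand), the adult muscle form, was not called in any comparison. Its values were 8.06 to 61.1 in 5 % CTRL (median 42.8), 28.6 to 91.5 in 1 % CTRL (median 51.5), 6.13 to 72.6 in 5 % STIM (median 39.0) and 43.8 to 97.2 in 1 % STIM (median 69.8), so that all groups overlapped. Gm44502 on the same strand covers 81.4 % of the Cpt1b exon length and shares 77.1 % of its 75-base words, and it was at 0 in at least 1 library of each group, so that the values of Cpt1b alone are uncertain. With both genes added before the fit, a choice made after seeing the data, the sums were 60.1 ± 9.47 in 5 % CTRL and 79.4 ± 10.8 in 1 % CTRL, against 64.1 ± 14.8 in 5 % STIM and 90.3 ± 9.37 in 1 % STIM. On these sums, 1 % O2 gave log2 fold changes of 0.40 (limma adjusted p = 0.00973) without stimulation and 0.51 (adjusted p = 0.00124) with it. Stimulation gave 0.07 (adjusted p = 0.746) at 5 % O2 and 0.19 (adjusted p = 0.352) at 1 % O2.

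The log2 ratio of Cpt1a to Cpt1b normalized counts within libraries was 5.39 ± 1.02 in 5 % CTRL and 4.20 ± 0.68 in 1 % CTRL, against 6.06 ± 1.21 in 5 % STIM and 4.83 ± 0.44 in 1 % STIM. It differed at 1 % O2 by -1.19 without stimulation (exact permutation adjusted p = 0.0312) and by -1.23 with it (exact permutation adjusted p = 0.0289), and the groups overlapped in both. Without replicate 1 of 1 % CTRL the former was -1.02 (exact permutation adjusted p = 0.0675). Stimulation shifted the ratio by 0.68 at 5 % O2 (exact permutation adjusted p = 0.342) and 0.63 at 1 % O2 (exact permutation adjusted p = 0.0968). These ratios carry the uncertainty of Cpt1b alone. Against the sum of Cpt1b and Gm44502, chosen after seeing the data, the log2 ratio was 4.63 ± 0.19 in 5 % CTRL and 3.56 ± 0.21 in 1 % CTRL, and 5.12 ± 0.35 in 5 % STIM and 4.41 ± 0.20 in 1 % STIM. It then differed at 1 % O2 by -1.07 without stimulation and -0.71 with it, and stimulation shifted it by 0.85 at 1 % O2, each without overlap (exact permutation adjusted p = 0.00289). The shift at 5 % O2 was 0.49, with overlapping groups (exact permutation adjusted p = 0.0130).

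Ucp3 (ENSMUSG00000032942, GRCm38 chr7:100472990-100486432, plus strand), the uncoupling protein of skeletal muscle, rose with stimulation. Its values were 44.6 to 70.5 in 5 % CTRL (median 64.9), 62.9 to 78.7 in 1 % CTRL (median 67.0), 88.8 to 152 in 5 % STIM (median 119.6) and 127 to 194 in 1 % STIM (median 154). Both stimulated groups were above both unstimulated groups with no overlap, and groups that differed in O2 alone overlapped. Stimulation raised it 1.89-fold at 5 % O2 (log2 fold change 0.92 ± 0.126 SE, limma adjusted p = 9.72e-07) and 2.30-fold at 1 % O2 (log2 fold change 1.20, adjusted p = 2.98e-09). The 95 % confidence interval of the log2 rise at 5 % O2, 0.66 to 1.17, included that of Angptl4, 0.75 to 0.91. At 1 % O2 Ucp3 was not called without stimulation (log2 fold change 0.18, adjusted p = 0.225), and it was 38.2 % higher between stimulated groups (log2 fold change 0.47, adjusted p = 0.00193).

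Ucp2 (ENSMUSG00000033685, GRCm38 chr7:100493337-100502020, plus strand), a carrier found in many tissues, lies next to Ucp3 on the chromosome. It measured 1936 to 2129 in 5 % CTRL (median 2003), 1716 to 1860.2 in 1 % CTRL (median 1812), 2293 to 2636 in 5 % STIM (median 2543) and 2007 to 2127 in 1 % STIM (median 2066). The groups overlapped only between 5 % CTRL and 1 % STIM. It fell at 1 % O2 by 10.9 % without stimulation (log2 fold change -0.17, limma adjusted p = 9.62e-05) and by 17.5 % with it (log2 fold change -0.28, adjusted p = 2.13e-08). With libraries rescaled the former was a log2 fold change of -0.09 (adjusted p = 0.0342). Stimulation raised it by 23.6 % at 5 % O2 (log2 fold change 0.31, adjusted p = 1.93e-08) and by 14.5 % at 1 % O2 (log2 fold change 0.20, adjusted p = 4.77e-05).

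These neighbouring genes differed in their responses. The log2 ratio of Ucp2 to Ucp3 normalized counts was 5.04 ± 0.30 in 5 % CTRL and 4.70 ± 0.11 in 1 % CTRL, against 4.44 ± 0.29 in 5 % STIM and 3.69 ± 0.22 in 1 % STIM. Stimulation shifted it by -0.61 at 5 % O2 and by -1.01 at 1 % O2, each with an exact permutation adjusted p = 0.00433. Differences between O2 levels were -0.35 without stimulation (exact permutation adjusted p = 0.0130) and -0.74 with it (exact permutation adjusted p = 0.00742).

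Plin2 (ENSMUSG00000028494, GRCm38 chr4:86648386-86670060, minus strand), the lipid droplet coat protein, was higher in all 4 comparisons by small amounts. It ranged over 2977 to 3165 in 5 % CTRL (median 3042), 3293 to 3338 in 1 % CTRL (median 3317), 3259 to 3593 in 5 % STIM (median 3433) and 3544 to 3764 in 1 % STIM (median 3679). The other groups all lay above 5 % CTRL, and 1 % STIM overlapped only with 5 % STIM. The rises under 1 % O2 were 8.35 % without stimulation (log2 fold change 0.12, limma adjusted p = 0.000534) and 6.81 % with it (log2 fold change 0.10, adjusted p = 0.00379). With libraries rescaled these log2 fold changes were larger, at 0.20 and 0.17. With stimulation they were 12.4 % at 5 % O2 (log2 fold change 0.17, adjusted p = 2.04e-05) and 10.8 % at 1 % O2 (log2 fold change 0.15, adjusted p = 0.00011).

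Ppard (ENSMUSG00000002250, GRCm38 chr17:28232700-28301474, plus strand), the receptor gene, had overlapping values in all groups. It measured 999.5 to 1168 in 5 % CTRL (median 1109), 979 to 1234 in 1 % CTRL (median 1144), 981 to 1252 in 5 % STIM (median 1033) and 949.9 to 1031 in 1 % STIM (median 985). It fell by 12.2 % with stimulation at 1 % O2 (log2 fold change -0.19 ± 0.051 SE, limma adjusted p = 0.00567). The other log2 fold changes were 0.04 and -0.11 for 1 % O2 without and with stimulation (adjusted p = 0.570 and 0.0684) and -0.05 for stimulation at 5 % O2 (adjusted p = 0.584). Without replicate 1 of 1 % CTRL, which had the lowest Ppard value of its group, the difference between stimulated groups was called (log2 fold change -0.11, adjusted p = 0.0384). With libraries rescaled, Ppard was called higher in 1 % CTRL than in 5 % CTRL (log2 fold change 0.12, adjusted p = 0.0492).

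Hadha (ENSMUSG00000025745, GRCm38 chr5:30118304-30155162, minus strand), an enzyme gene of beta-oxidation, was called in no comparison. It had medians of 4545, 4539, 4517 and 4508 in 5 % CTRL, 1 % CTRL, 5 % STIM and 1 % STIM, with overlapping ranges. Its 4 log2 fold changes lay between -0.03 and 0.03, with 95 % confidence intervals that together reached from -0.09 to 0.09. With libraries rescaled it was called higher at 1 % O2, with log2 fold changes of 0.11 without stimulation (adjusted p = 0.00147) and 0.07 with it (adjusted p = 0.0283).

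Acadvl (ENSMUSG00000018574, GRCm38 chr11:70010183-70015411, minus strand), the dehydrogenase of very long-chain fatty acids, measured 2849.9 to 2969 in 5 % CTRL (median 2893), 2465 to 2676 in 1 % CTRL (median 2627), 2731 to 2938 in 5 % STIM (median 2895) and 2666 to 2833 in 1 % STIM (median 2760.0). The 1 % CTRL libraries lay below all 5 % CTRL libraries, and the groups of the other 3 comparisons overlapped. Acadvl fell by 10.3 % at 1 % O2 without stimulation (log2 fold change -0.16, limma adjusted p = 5.87e-06) and rose by 5.75 % with stimulation at 1 % O2 (log2 fold change 0.08, adjusted p = 0.0273). With libraries rescaled the fall was smaller (log2 fold change -0.08, adjusted p = 0.0135). The rise was no longer called with no filter on low values (adjusted p = 0.0615), in a fit of the compared groups alone (adjusted p = 0.0618) or at a threshold of 0.01. Between the stimulated groups Acadvl was not called (log2 fold change -0.06, adjusted p = 0.0656), but was with array weights (adjusted p = 0.0411) and with DESeq2 (adjusted p = 0.0434). Dvl2 on the opposite strand overlaps 42.9 % of the Acadvl exon length, and reads were counted without regard to strand. Dvl2 rose at 1 % O2 without stimulation (log2 fold change 0.43, limma adjusted p = 2.40e-07) and with it (log2 fold change 0.43, adjusted p = 3.42e-07), so that the Acadvl values are uncertain.

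A response to stimulation that differs between O2 levels was tested as an interaction, the log2 response at 1 % O2 minus that at 5 % O2. Of the 10 genes, 2 were called, both with a larger log2 rise at 1 % O2, beside 11.3 % of all tested genes (5.88 % higher and 5.43 % lower). For Angptl4 the interaction was 0.97 ± 0.055 SE (limma adjusted p = 1.07e-14), ranking 79 from the highest, and for Cpt1a it was 0.48 ± 0.052 SE (adjusted p = 4.40e-08). The other 8 genes had interactions of -0.14 to 0.52 that were not called. Without replicate 1 of 1 % CTRL, Ppard was called as well (-0.18, adjusted p = 0.0499).

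For Angptl4 the direction depended on the scale. In normalized counts it rose by 4657 ± 128 (SE) at 5 % O2 and by 4038 ± 87.4 at 1 % O2, a difference of -619 ± 155, and its unstimulated level at 1 % O2 was 27.1 % of that at 5 % O2. For Cpt1a the rises in normalized counts were 717 ± 36.0 and 998 ± 43.2, a difference of 281 ± 56.2 in the same direction as the log2 interaction. In 1 % STIM, Angptl4 reached 94.4 % and Cpt1a 129.5 % of their means in 5 % CTRL, and 53.1 % and 87.6 % of those in 5 % STIM. The comparison without the log was chosen after seeing the data and was not tested across genes.

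**Figure D3:**
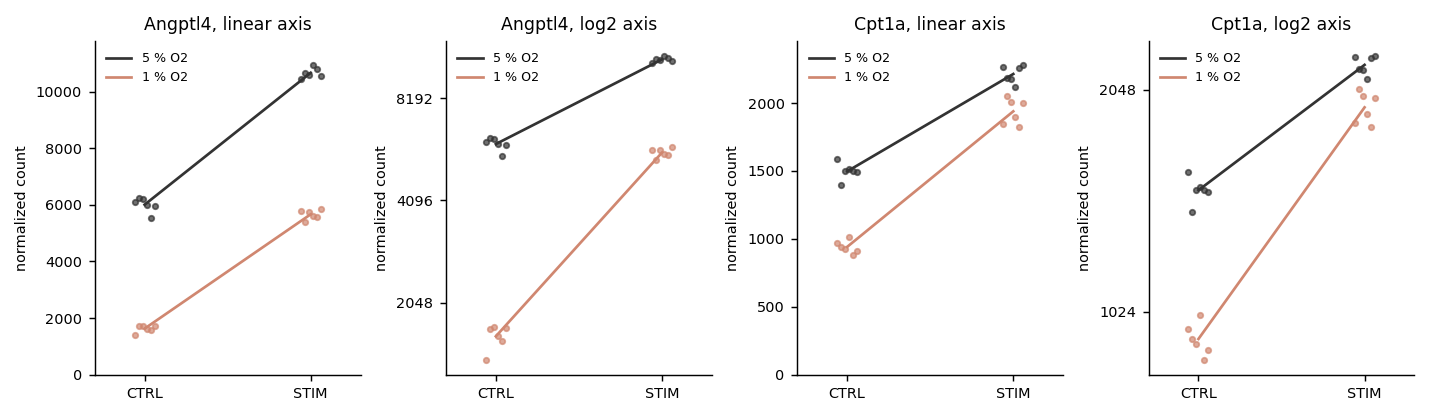
Normalized counts of Angptl4 and Cpt1a in CTRL and STIM libraries at 5 % O2 (black) and 1 % O2 (orange), each on a linear axis from 0 and on a log2 axis; points are libraries and lines join group means (n = 6). On the linear axis the Angptl4 lines rise by 4657 and 4038, and on the log2 axis the 1 % O2 line is steeper (log2 rise of 1.80 against 0.83).

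Targets of HIF, the factor stabilized at low O2, changed between the same groups. Of 20 such genes, 19 were called higher in 1 % CTRL than in 5 % CTRL (median log2 fold change 1.22), beside 29.4 % of all tested genes. In 1 % STIM, 18 were called higher than in 5 % STIM (median 0.62), beside 29 %. Stimulation lowered 10 and raised 4 at 5 % O2 (median -0.11), beside 12 % of all genes lower and 9.44 % higher. At 1 % O2 it lowered 17 and raised 0 (median -0.44), beside 10.8 % lower and 11.5 % higher. A negative interaction was called for 14 (median -0.37), beside 5.43 % of all genes. Slc2a1, a glucose transporter named here after its values were seen, averaged 2813 normalized counts in 5 % CTRL and 12888 in 1 % CTRL, against 2614 in 5 % STIM and 8337 in 1 % STIM. Of 15 immediate early genes, 9 were lower and 3 higher in 1 % CTRL than in 5 % CTRL, beside 30.5 % and 29.4 % of all genes. In 1 % STIM against 1 % CTRL, 4 were lower and 5 higher, beside 10.8 % and 11.5 % of all genes. The part of either group of genes in the results for Angptl4 and Cpt1a was not tested.

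Enzymes of mitochondrial beta-oxidation formed a list of 17 genes, Acadvl and Hadha included, all of which were tested. Of these, 5 rose and 2 fell at 1 % O2 without stimulation, and 4 rose and 2 fell with it. With stimulation, 3 rose and 0 fell at either O2 level. Of all tested genes, 29.4 % rose and 30.5 % fell at 1 % O2 without stimulation, and 29 % rose and 28.4 % fell with it. Stimulation raised 9.44 % and lowered 12 % of them at 5 % O2, and raised 11.5 % and lowered 10.8 % at 1 % O2. In both comparisons of O2 levels, a smaller share of this list than of all genes was called. The 17.6 % of the list called for stimulation at either O2 level was near the 21.4 % and 22.3 % of all genes called. The counts of the lists below stand beside the same shares of all genes. Their rescaled counts stand beside the rescaled counts of all genes given above. Every log2 fold change in these 4 comparisons was under 0.25 in size, and the list medians were 0.03, 0.00, 0.02 and 0.01, beside medians of 0.00, 0.00, -0.01 and 0.00 over all genes. With libraries rescaled, 9 rose and 1 fell at 1 % O2 without stimulation, beside 5670 and 3378 of the 14541 tested genes. Between the stimulated groups 8 then rose and 0 fell, beside 5466 and 3182 of all genes. Acadl, the long-chain acyl-CoA dehydrogenase, rose in all 4 comparisons, by 0.11 to 0.14 on the log2 scale. Echs1, the enoyl-CoA hydratase, rose by 0.21 at 1 % O2 without stimulation and by 0.22 with stimulation at 5 % O2, and was the only gene of the list with a called interaction (-0.26, limma adjusted p = 0.00805).

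Other known PPAR targets were called in both directions. Of 31 listed, 20 were tested, with 5 higher and 6 lower at 1 % O2 without stimulation (median log2 fold change 0.06), 5 and 6 with it (median -0.09), 4 and 3 after stimulation at 5 % O2 (median 0.09) and 3 and 2 after stimulation at 1 % O2 (median 0.04). With libraries rescaled these counts were 8 and 6, 7 and 4, 7 and 2, and 4 and 1. Pdk4, the kinase that restrains pyruvate dehydrogenase, averaged 891 ± 39.4 in 5 % CTRL and 405 ± 48.9 in 1 % CTRL, against 1666 ± 205 in 5 % STIM and 1192 ± 93.0 in 1 % STIM, and no groups overlapped. It fell at 1 % O2 (log2 fold changes -1.14 and -0.48, without and with stimulation) and rose with stimulation (0.89 and 1.56, at 5 % and 1 % O2), with a called interaction of 0.66 (limma adjusted p = 0.000109). In normalized counts its rises were 775 at 5 % O2 and 787 at 1 % O2, a difference of 11.9 ± 95.2 (SE). Vldlr, a lipoprotein receptor, averaged 1129 ± 52.7, 2174 ± 188, 1882 ± 115 and 1969 ± 111 in 5 % CTRL, 1 % CTRL, 5 % STIM and 1 % STIM, with an interaction of -0.88 (adjusted p = 3.31e-11). Fgf21, a secreted metabolic hormone, fell from 2249.8 ± 88.2 in 5 % CTRL to 1242 ± 80.7 in 1 % CTRL (log2 fold change -0.86, adjusted p = 2.36e-13) and was not called for stimulation. The fatty acid transporter Cd36 fell at 1 % O2 by 0.44 on the log2 scale and rose by 0.20 with stimulation at 1 % O2.

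**Figure D4:**
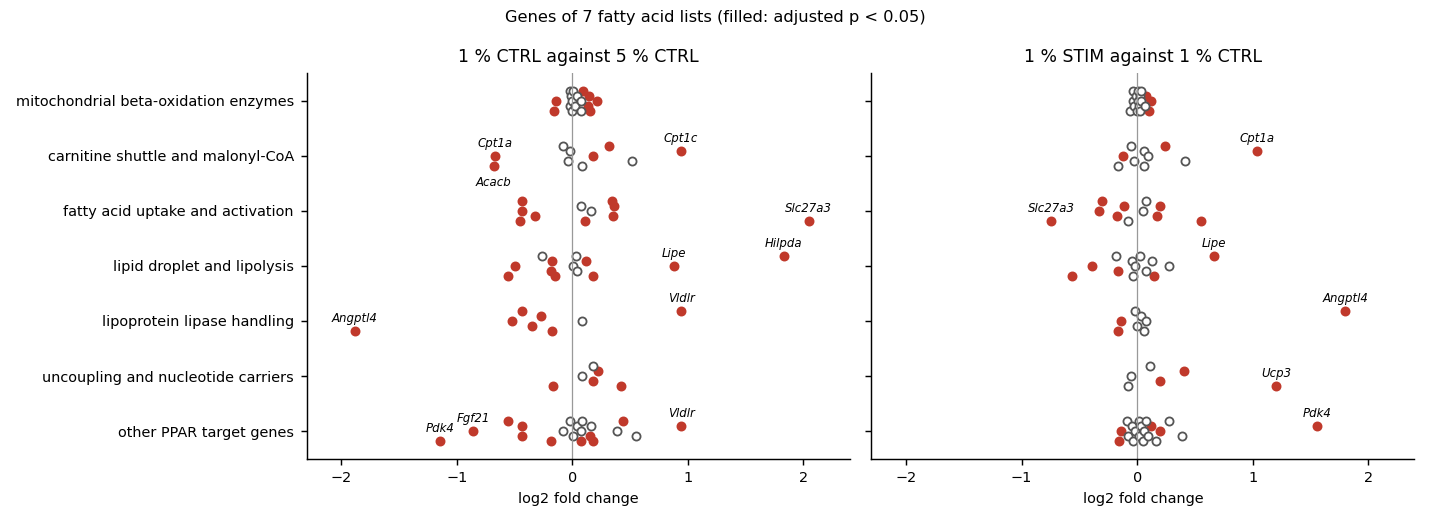
Log2 fold changes of the genes of 7 fatty acid lists (rows), for 1 % O2 in unstimulated myotubes (left) and for stimulation at 1 % O2 (right); each point is a gene, filled where the adjusted p is under 0.05, and genes beyond 0.65 in either direction are named. The 17 beta-oxidation enzymes cluster next to 0 in both panels, while Angptl4 and Pdk4 lie far to the left in the left panel and far to the right in the right panel.

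Of the receptors, partners and coregulators of PPARs, 17 of 18 were tested. At 1 % O2 without stimulation 5 rose and 7 fell, and with stimulation 6 rose and 8 fell, with list medians of -0.02 and -0.09. With libraries rescaled, 8 rose and 7 fell without stimulation and 7 rose and 6 fell with it. Stimulation raised 1 and lowered 2 at 5 % O2 (1 and 5 without replicate 1 of 1 % CTRL, and 1 and 0 with libraries rescaled), and raised 6 and lowered 2 at 1 % O2. The coactivator gene Ncoa2 rose from 807 ± 29.7 in 5 % CTRL to 1302 ± 79.5 in 1 % CTRL (log2 fold change 0.69, limma adjusted p = 2.36e-16). Pparg, the receptor of adipocytes, rose with stimulation at 5 % O2 (log2 fold change 0.29, adjusted p = 0.0316) and at 1 % O2 (log2 fold change 0.33, adjusted p = 0.0146).

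Of the 10 genes of the carnitine shuttle and malonyl-CoA, 3 rose and 2 fell at 1 % O2 without stimulation, and 4 rose and 3 fell with it. With stimulation 1 rose and 2 fell at 5 % O2, and 2 rose and 1 fell at 1 % O2. With libraries rescaled these counts were 4 and 2, 5 and 2, 2 and 1, and 2 and 0. Acacb, which makes the malonyl-CoA that inhibits the carnitine palmitoyltransferases, fell from 107 ± 19.8 in 5 % CTRL to 66.2 ± 8.20 in 1 % CTRL (log2 fold change -0.68, limma adjusted p = 9.12e-06). Acaca, which also makes malonyl-CoA, had far higher counts, at 3117 ± 144 in 5 % CTRL and 3050 ± 292 in 1 % CTRL. It averaged 2697 ± 119 in 5 % STIM and 2789 ± 120 in 1 % STIM. Malonyl-CoA itself was not measured. Mlycd, which breaks malonyl-CoA down, rose between the stimulated groups from 239 ± 22.8 to 332 ± 15.8 (log2 fold change 0.48, adjusted p = 1.14e-07).

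Among 8 tested genes of lipoprotein lipase handling (of 12), 6 fell and 1 rose at 1 % O2 without stimulation, with a median log2 fold change of -0.31. Of all tested genes, 30.5 % fell and 29.4 % rose there. Between the stimulated groups 6 fell (median -0.18), beside 28.4 % of all genes, and rescaling left 4 lower and 1 higher. Angptl4 and Lpl are among the genes that fell in both. Stimulation raised 2 and lowered 0 at 5 % O2, and raised 1 and lowered 2 at 1 % O2, where 0 were lowered with libraries rescaled or without replicate 1 of 1 % CTRL. Pcsk6, a protease that cleaves lipases and their regulators, fell from 410.4 ± 20.9 in 5 % CTRL to 286 ± 33.7 in 1 % CTRL (log2 fold change -0.53, limma adjusted p = 9.78e-09). Of 6 tested mitochondrial carriers (of 7), Ucp2 and Ucp3 included, 3 rose and 1 fell at 1 % O2 without stimulation and 4 rose and 1 fell with it, while stimulation raised 2 at 5 % O2 and 3 at 1 % O2.

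Of 13 tested lipid droplet genes (of 17), 4 rose and 5 fell at 1 % O2 without stimulation, 3 rose and 4 fell with it, 5 rose and 1 fell with stimulation at 5 % O2, and 2 rose and 3 fell with stimulation at 1 % O2. With libraries rescaled, 4 rose and 3 fell at 1 % O2 without stimulation and 4 rose and 2 fell with it. Hilpda, a lipid droplet protein that inhibits lipolysis, rose from 234 ± 9.04 in 5 % CTRL to 834 ± 37.4 in 1 % CTRL (log2 fold change 1.83, limma adjusted p = 2.25e-23). G0s2, another inhibitor of lipolysis, fell between the stimulated groups from 679.6 ± 49.4 to 269 ± 45.01 (log2 fold change -1.35, adjusted p = 1.27e-08). Of 11 tested genes of fatty acid uptake and activation (of 12), 5 rose and 4 fell at 1 % O2 without stimulation, 5 rose and 5 fell with it, 1 rose and 2 fell with stimulation at 5 % O2, and 3 rose and 5 fell with stimulation at 1 % O2. With libraries rescaled these counts were 7 and 4, 5 and 5, 2 and 0, and 4 and 4. Slc27a3, an acyl-CoA synthetase, rose from 41.0 ± 6.22 to 172 ± 12.8 between the unstimulated groups (log2 fold change 2.05, adjusted p = 1.02e-17) and fell with stimulation at 1 % O2 (log2 fold change -0.75, adjusted p = 1.55e-06). Acsl3, which activates fatty acids at lipid droplets, rose with stimulation by 0.40 at 5 % O2 and by 0.55 at 1 % O2 on the log2 scale.

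Likeness of pattern was measured over the 4 group means of log2 values, each gene centred on its own mean, as the root mean square difference, among the 11045 genes whose highest group mean reached 100. The genes nearest to Angptl4 were Tcim (0.25), Pdk4 (0.31) and Gdf15 (0.39), and Cpt1a was the nearest of the other 9 genes (0.56). Nearest to Cpt1a were Vegfc (0.08), Gm40841 (0.11) and Snai2 (0.15), and nearest to Ucp3 were Crebrf (0.06), Tmem140 (0.09) and Bbc3 (0.11). The nearest genes were Zfyve26, Reep4 and Man1a for Plin2, 2410006H16Rik, Rhbdl2 and Tbc1d31 for Ucp2, Ttpal, Pom121 and Ppm1e for Lpl, Aimp2, Amotl1 and Thap7 for Ppard, and Kdm3b, Rnf166 and Katna1 for Acadvl. These distances are a description over 4 means and carry no test.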

How the data were processed

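RNA from 24 libraries of C2C12 myotubes was grouped by the submitters' labels into 4 groups of 6. The authors made stranded mRNA libraries and read them from a single end. They aligned reads to GRCm38 with STAR (2.5.4b) and counted them per gene with RSEM (1.3.0) at default settings, which do not use strand, per the submitters' processing notes and the study's methods. The authors deposited a normalized signal, in which each count had been scaled by the size factor that DESeq2 gave the library. A second deposited table, of the authors' own fold changes and p-values, was not used.

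Whole reads were recovered from the smallest step between values in each library (100 % of values whole within 0.01), and libraries held 26541858 to 28173745 reads. Testing kept the 14541 of 55487 genes that reached 10 normalized counts in 6 or more libraries. Values were taken as log2(normalized count + 1), and limma (3.58.1) fitted the 4 groups together with trend and robust settings and Benjamini-Hochberg adjustment over all tested genes. Calls had an adjusted p under 0.05. Fold changes are on this log2(value + 1) scale, which understates changes of low genes. Ratios taken library by library were tested by exact two-sided permutation (SciPy 1.17.1), adjusted over 12 tests. Alternatives were no filter, a pseudocount of 10, a threshold of 0.01, a replicate block, the compared groups alone, rescaled libraries, array weights, edgeR (4.0.16), DESeq2 (1.42.0) and voom on whole reads, a covariate for gene length, and leaving out replicate 1 of 1 % CTRL. Exon lengths, coordinates and overlaps came from GENCODE M21 (99.5 % of listed genes matched). Scripts were tested on simulated data.

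The 10 genes, the ratios and all gene lists were chosen with earlier results of these data known. Named genes were the 10 genes in every comparison, up to 3 called genes of each list with the largest change in a comparison where the higher group averaged 100 or more, and the 3 genes nearest in pattern to each of the 10 that was called. A gene that this rule would name is not reported here.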

Additional observations from a re-analysis of the deposited data

Results flagged for a closer look

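The response to stimulation differed between O2 levels for Angptl4 and Cpt1a by the test of the interaction itself. For Angptl4 the interaction was 0.97 on the log2 scale (limma adjusted p = 1.07e-14), and for Cpt1a it was 0.48 (adjusted p = 4.40e-08). In both, all 6 libraries of each stimulated group exceeded all 6 of their unstimulated group. In normalized counts, the rise of Angptl4 at 1 % O2 differed from that at 5 % O2 by -619 ± 155 (SE), and that of Cpt1a by 281 ± 56.2.

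No library stood apart from its group in any of the 40 combinations of gene and group, where the gap to the nearest library was set against the range of the group; chance alone would put about 1 in 20 such groups past the limit.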

How the results depend on the processing

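The number of the 10 genes called stayed within 1.5 times under every alternative run, at 6 to 8 for 1 % O2 without and with stimulation, 5 for stimulation at 5 % O2, 6 to 7 for stimulation at 1 % O2 and 2 to 3 for the interaction. Angptl4 and Cpt1a kept their directions and calls in all 5 comparisons under the log2 alternatives, with interactions of 0.93 to 1.03 and 0.45 to 0.49. With libraries rescaled to the same total, log2 fold changes of Acadvl turned to 0.0124 in 1 % STIM against 5 % STIM and to 0.0130 in 5 % STIM against 5 % CTRL, that of Hadha to 0.0258 in 5 % STIM against 5 % CTRL and that of Lpl to 0.00608 in 1 % STIM against 1 % CTRL. With gene length as a covariate, those of Hadha turned to -0.0191 in 1 % STIM against 5 % STIM and to 0.0191 in 5 % STIM against 5 % CTRL. With Gm44502 added, that of Cpt1b turned to 0.0746 in 5 % STIM against 5 % CTRL. None of these values was called. Without the log, the Angptl4 interaction was -619 normalized counts. That alternative takes a difference in place of a ratio, and the cause of the change in sign was not tested. The log2 ratio of Cpt1a to Cpt1b differed by 0.69 between 1 % STIM and 1 % CTRL with a pseudocount of 10 (exact permutation adjusted p = 0.0425), and by -1.02 between the unstimulated groups without 1 % CTRL replicate 1 (exact permutation adjusted p = 0.0675), and the cause was not tested. With Gm44502 added to Cpt1b, stimulation shifted that ratio by 0.49 at 5 % O2 and 0.85 at 1 % O2 (exact permutation adjusted p = 0.0130 and 0.00289), both called where Cpt1b alone gave no call. Rescaling moved called O2 differences by over 1.5 times, to -0.0761 for Acadvl, -0.0857 for Ucp2 and 0.196 for Plin2 without stimulation, with 0.165 for Plin2 and -0.122 for Cpt1a with it. Over all genes, a threshold of 0.01 in place of 0.05 left 1944 of 3115 calls for stimulation at 5 % O2 and 830 of 1645 for the interaction. 1 % CTRL replicate 1 was the only library left out in an alternative. The fit of the compared groups alone gives no interaction.

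Libraries were not treated as paired by replicate number. Deviations of same-numbered libraries correlated at -0.148 to 0.155 (median 0.006, 36 pairs). Those of differently numbered libraries correlated at -0.244 to 0.343 (median 0.0008, 180 pairs). Of 24 libraries, 7 correlated best with their own number, and whether that is more than by chance was not tested. With a replicate block, 6, 6, 5, 7 and 2 of the 10 genes were called in the 5 comparisons, and no call on the 10 genes changed. Cpt1b and Ucp3, at means of 39.8 to 161 normalized counts, are measured least precisely, and a difference that was not called there may still exist.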
